A study of Mus musculus with 2 samples.

Results

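The genes described here encode 10 subunits of Polycomb repressive complex 1 (PRC1): Ring1 and Rnf2, Pcgf1, Pcgf2, Bmi1 and Pcgf6, Cbx2 and Cbx7, Rybp, and Phc1. They were chosen by name, by a rule that uses no measured value but with earlier results of these data known, and are 10 of the 21911 protein-coding genes of the GENCODE M21 annotation of mm10. The readout was chromatin immunoprecipitation and sequencing (ChIP-seq) of H3K36me3, a trimethylated lysine of histone H3, in E14TG2a.4 cells. E14TG2a.4 is a male embryonic stem cell line of mouse strain 129/Ola, listed as embryonic with an age of 3.5 days. The 2 biological replicates come from separate biosamples of this line and 1 donor, with no treatment, and form 1 group. No conditions were compared, so the values below are descriptions, with a spread over the replicates and no test.

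PRC1 is a ubiquitin ligase of histone H2A that takes part in keeping developmental genes silent in embryonic stem cells. Each complex is built on RING1 or RNF2 paired with a PCGF protein. Canonical forms add a CBX protein, which binds trimethylated lysine on histone H3, and a PHC protein, whereas variant forms carry RYBP or YAF2 in place of CBX. H3K36me3 is laid down over gene bodies by an enzyme that travels with elongating RNA polymerase II, so it is commonly read as a mark of transcribed genes.

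The covered share of a gene is the percent of the bases of its annotated span that lie in a replicate's own called peaks. A gene was called marked when this share was at least 10% in each replicate. Replicate 1 had 107779 peaks over 139 Mb and replicate 2 had 98185 peaks over 127 Mb. The files hold called peaks without read counts, so the sequencing depth is unknown and a difference between replicates can be one of depth. The cells were assayed in bulk, so fewer cells with the mark and less mark per cell cannot be told apart. The label of the cells was checked against markers. All 8 embryonic stem cell genes examined were marked, with covered shares from 35.4% to 89.5%, beside 37.2% of all coding genes marked. All 8 genes of feeder fibroblasts had 0 covered bases in both replicates, as did 50.1% of all coding genes. Lack of coverage is thus common and by itself says little about feeder cells.

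The bases under the strongest peaks are shown for Phc1 and Pcgf2, which had the highest peak fold, and for Rnf2 and Rybp, where the peaks were patchy but the summits of the replicates met. The windows reach 50 bp to each side of the summit of the strongest peak of replicate 1. They are written along the transcribed strand, 5′ to 3′, from RefSeq GRCm38.p6, with coding bases of any annotated transcript in capitals. In Phc1 (minus strand, chr6:122325642-122325742) the window lay wholly inside coding exon 6 of 14 of the selected transcript, here always the longest coding transcript with a basic or CCDS tag.
Phc1: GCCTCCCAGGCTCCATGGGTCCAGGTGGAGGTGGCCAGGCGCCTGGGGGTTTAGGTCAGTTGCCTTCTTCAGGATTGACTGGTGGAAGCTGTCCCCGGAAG
In Pcgf2 (minus strand, chr11:97691635-97691735) the window crossed the 3′ edge of exon 8 of 10, with 52 coding bases before the intron.
Pcgf2: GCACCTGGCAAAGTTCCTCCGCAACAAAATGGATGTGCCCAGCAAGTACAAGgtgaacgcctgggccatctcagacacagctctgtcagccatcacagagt
In Rnf2 (minus strand, chr1:151476084-151476184) it crossed the 3′ edge of exon 4 of 7, with 45 coding bases.
Rnf2: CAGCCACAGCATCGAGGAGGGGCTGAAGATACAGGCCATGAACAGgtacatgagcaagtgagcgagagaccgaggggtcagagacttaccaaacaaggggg
In Rybp (minus strand, chr6:100232789-100232889) it crossed the 3′ edge of exon 4 of 5, with 23 coding bases.
Rybp: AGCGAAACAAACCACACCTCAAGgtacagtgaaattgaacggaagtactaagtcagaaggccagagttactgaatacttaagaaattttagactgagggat
The summits of the strongest peak in the replicates lay 67 bp apart in Phc1, 296 bp in Pcgf2, 57 bp in Rnf2 and 1 bp in Rybp. The windows of Pcgf6, Cbx2 and Cbx7 fell in introns, that of Ring1 in its last exon outside coding bases, and that of Pcgf1 past the end of the gene.

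Bmi1 and Pcgf2, which encode closely related PCGF proteins, differed sharply in these data, and the bases before their RefSeq starts are shown for that reason. RefSeq promoters were on hand for 7 of the 10 genes. The 250 bases before the RefSeq start are written 5′ to 3′ along the transcribed strand, with each CG in capitals, a motif that reads the same on both strands. The Bmi1 stretch is on the plus strand (chr2:18676768-18677017) and held 21 CG.
Bmi1: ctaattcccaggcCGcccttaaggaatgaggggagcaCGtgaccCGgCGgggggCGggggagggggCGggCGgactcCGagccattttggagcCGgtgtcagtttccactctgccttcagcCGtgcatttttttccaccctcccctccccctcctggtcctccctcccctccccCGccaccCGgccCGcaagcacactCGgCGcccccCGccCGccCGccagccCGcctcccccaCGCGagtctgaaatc
The Pcgf2 stretch is on the minus strand (chr11:97699649-97699898) and held 5 CG. It lies inside the annotated gene, since a coding transcript with a basic or CCDS tag starts further upstream, at 97700497. The Bmi1 stretch lies outside its gene, so the 2 stretches are not alike in position.
Pcgf2: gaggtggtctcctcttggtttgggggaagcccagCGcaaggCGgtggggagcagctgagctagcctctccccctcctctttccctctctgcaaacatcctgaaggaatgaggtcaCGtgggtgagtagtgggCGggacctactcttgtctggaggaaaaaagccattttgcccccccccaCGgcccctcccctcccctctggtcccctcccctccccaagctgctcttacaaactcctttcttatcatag
Over 27025 RefSeq promoters of this length, 91.7% held at least 1 CG and the median count was 6. The Bmi1 stretch had more CG than 83.9% of them and the Pcgf2 stretch more than 44.5%. The other 5 genes with an entry, all marked, held 30 (Ring1), 23 (Cbx7), 20 (Rnf2), 14 (Pcgf6) and 8 CG (Phc1). The stretches of Cbx7 and Phc1 also lie inside their annotated genes, with 122 and 250 of the 250 bases in annotated exons. Marked genes thus lay both above and below Bmi1, and a relation of CG count to the mark was not tested. No base of the stretches of these 7 genes lay in a peak in either replicate.

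Of the 10 genes, 9 were marked, whereas 37.2% of all coding genes were. The strongest shares were those of Phc1 and Pcgf6, at more than 80% in each replicate, a level that 5.66% of coding genes reached. At a threshold of 5% of the body 9 of the 10 genes passed, against 40.6% of coding genes. At 50% 5 of the 10 genes passed, against 19.3% of coding genes, and at 25% 7 of the 10 passed, against 29.9%. The median share over the 10 genes was 51.5%, whereas it was 0 over all coding genes.

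Ring1 and Rnf2 encode the catalytic ubiquitin ligases of the complex, and their covered shares were among the lowest of the marked genes described here. Rnf2 (ENSMUSG00000026484, chr1:151458004-151500955, minus strand) encodes RING1B, the ligase that carries most of the H2A ubiquitylation in mouse embryonic stem cells. Its share was 39.3% in replicate 1 and 29.0% in replicate 2, a mean of 34.2% ± 7.27 (SD, n = 2). Ring1 (ENSMUSG00000024325, chr17:34020792-34024680, minus strand), which encodes the paralogous RING1A, was covered to 18.4% and 34.6%, a mean of 26.5% ± 11.5. The order of the pair was reversed between the replicates, so their means do not differ beyond the spread.

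The difference between replicates in Ring1 lay mostly at a single place in this 3.89 kb gene. Both replicates had a peak over the last exon, exon 7, which was covered to 100% in each. Replicate 2 had another peak of 616 bp that held all of exons 3 and 4, where replicate 1 had none. The replicates differed by 16.2 points of the gene body, with replicate 2 the higher, a gap larger than that of 96.4% of marked genes. Over all 8155 marked genes the median gap was 3.68 points, and 95% of genes were within 14.7 points. The fold enrichment of the strongest Ring1 peak, a ratio over background given by the authors' caller, was 5.50 in replicate 1 and 5.87 in replicate 2.

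The peaks of Rnf2 lay mostly in the middle of the annotated span. Cut into 3 equal parts from 5′ to 3′, the gene read 13.1%, 77.8% and 27.0% in replicate 1 and 0%, 66.5% and 20.6% in replicate 2. The annotation extends the span by 11.4 kb at the 3′ end through a single transcript that lacks the basic and CCDS tags, and that extension was covered to 17.9% and 12.5%. Over the selected transcript (31.6 kb, ending at 151469406) the shares were 47.0% and 35.0%, a mean of 41.0% ± 8.51. Within that transcript the 3 parts read 8.98%, 46.2% and 85.9% in replicate 1 and 0%, 29.9% and 75.1% in replicate 2, so the 3′ part was the most covered in both. Exons 2 to 6 were each at 100% in both replicates, and exon 1 was at 0. The strongest Rnf2 peak had a fold of 9.43 and 13.7. At the far edge of the extension Rnf2 overlaps Trmt1l on the opposite strand by 158 bp, and Trmt1l was covered to 53.1% ± 3.58, so the peaks at that edge cannot be assigned to either gene.

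Of the PCGF genes, whose products decide which form of PRC1 is assembled, Pcgf6, Pcgf2 and Pcgf1 were marked and Bmi1 was not. Pcgf6 (ENSMUSG00000025050, chr19:47033617-47050906, minus strand) encodes the PCGF subunit of the variant complex that contains MGA and E2F6. It was covered to 83.7% and 86.3%, a mean of 85.03% ± 1.83. Pcgf2 (ENSMUSG00000018537, chr11:97688823-97700497, minus strand) encodes MEL18, a PCGF subunit of canonical PRC1, and was covered to 61.9% and 61.5%, a mean of 61.7% ± 0.224. Pcgf1 (ENSMUSG00000069678, chr6:83077869-83080855, plus strand) encodes the subunit of the variant complex that contains KDM2B, and was covered to 47.0% and 42.6%, a mean of 44.8% ± 3.08. These genes kept the same order in each replicate.

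Bmi1 (ENSMUSG00000026739, chr2:18677018-18686629, plus strand), which encodes the other PCGF subunit of canonical PRC1, had 0 covered bases in both replicates. So did 50.1% of all coding genes. The whole 9.61 kb body, its 10 exons and 9 introns, and the 5 kb on each side were free of peaks. The gene lay in a stretch without any peak that ran for 916 kb in replicate 1 and 381 kb in replicate 2. In the authors' unthresholded sets, which come from another processing run, the nearest peak past the end of the gene was 142 bp away in replicate 1 and 157 kb away in replicate 2, and the body itself was still at 0. The coding genes beside it, Commd3 at 786 bp upstream and Spag6 at 7.40 kb downstream, had 0 covered bases too. Of 32-base words sampled along Bmi1, 88.7% occur once in the genome, and 10.9% of its bases are masked as repeats. Among the 10 genes only Pcgf1, at 88.5%, had a lower share of such words, and Pcgf2 was at 98.3%. How reads that match several places were treated is not given in the sources used here.

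Pcgf2 and Bmi1 could be compared exon by exon, because exons 3 to 6 of the selected transcripts have the same lengths in both genes, 97, 56, 51 and 109 bp. In Pcgf2 each of these exons was covered to 100% in both replicates, and in Bmi1 each was at 0. Pcgf2 held a single unbroken peak of 9279 bp and 9474 bp in replicates 1 and 2, with a fold of 11.1 and 17.1. It began 4453 bp and 4490 bp inside the gene, within intron 1, and covered every exon from exon 2 to exon 10 in full. It also ran past the end of the gene over its neighbour: Cisd3, on the opposite strand at a distance of 201 bp, was covered to 70.5% ± 5.87. Peaks carry no strand, so coverage near that edge cannot be assigned to one gene.

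In Pcgf6 the mark was broken into 8 peaks in replicate 1 and 7 in replicate 2, but the gaps inside the gene were at most 411 bp and 257 bp. Exon 1 was at 0 in both replicates. Exon 7, only 28 bp long, was also at 0 in both, since it fell in a gap between peaks. Exons 4, 5, 6, 8, 9 and 10 were covered to 100% in both. The summits of the strongest Pcgf6 peak lay 3 bp apart, with a fold of 10.4 and 13.2. In the compact gene Pcgf1, 2.99 kb long, a single peak started 1584 bp and 1620 bp inside the gene. Its exons 1 to 3 were at 0 and exons 5 to 8 at 100% in both replicates. The Pcgf1 peak had a fold of 7.40 and 8.12.

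Cbx2 and Cbx7 encode chromodomain proteins of canonical PRC1, and both were marked. Cbx2 (ENSMUSG00000025577, chr11:119022962-119031270, plus strand) was covered to 64.4% and 71.9%, a mean of 68.2% ± 5.28. Cbx7 (ENSMUSG00000053411, chr15:79915807-79971119, minus strand), which encodes the CBX protein that predominates in mouse embryonic stem cells, was covered to 60.9% and 55.4%, a mean of 58.1% ± 3.88. Over these annotated spans Cbx2 was the higher of the pair in each replicate. Over the selected transcripts Cbx7 was the higher, at 81.9% and 79.3% against 64.4% and 71.9%. In Cbx2 exons 1 to 3 were at 0, exon 4 was at 100%, and the long last exon of 3.37 kb was covered to 98.0% and 97.0%. The strongest Cbx2 peak spanned 5354 bp in replicate 1 and 5019 bp in replicate 2, with a fold of 7.56 and 10.6. Cbx8, 5.03 kb past its end on the opposite strand, had 0 covered bases, and the 5 kb past the end of Cbx2 was also at 0.

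Cbx7 carried the mark in separate blocks. Over the 10 equal parts of its 55.3 kb span, parts 1 to 4 were covered to between 72.5% and 88.4% in replicate 1 and between 72.6% and 77.8% in replicate 2. Parts 5, 6 and 7 then held 17.6%, 9.58% and 6.22% in replicate 1 and 8.59%, 2.55% and 0% in replicate 2. Part 8 stood at 68.5% and 65.5%, and part 10 at 97.1% and 97.3%. The longest uncovered stretch inside the gene was 5.62 kb in replicate 1 and 11.6 kb in replicate 2. In the longer one 91.0% of 32-base words occur once in the genome and 37.3% of bases are masked as repeats. Over the whole gene these were 93.6% and 28.5%. In bases covered in either replicate they were 97.7% and 21.4%, and in the other bases 86.3% and 41.1%. Whether this bears on where peaks were called was not tested.

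The later block of Cbx7 matches the tagged coding transcripts, none of which reaches beyond 79932652, while the earlier block lies in a span that only transcripts without those tags include. The selected transcript, 16.8 kb long, was covered to 81.9% and 79.3%, a mean of 80.6% ± 1.83. The remaining 38.5 kb was covered to 51.7% and 44.9%. Which transcript units the earlier block belongs to cannot be read from these data. Exons 2 to 6 of the selected transcript were at 100% in both replicates and exon 1 was at 0. The strongest peaks, with a fold of 10.2 and 14.9, were not the same peak, since their summits lay 4594 bp apart. At its 3′ edge Cbx7 overlaps Apobec3, on the opposite strand, by 100 bp, and Apobec3 was covered to 53.6% ± 2.11.

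Rybp (ENSMUSG00000072872, chr6:100228565-100287485, minus strand) encodes the subunit that sets variant PRC1 apart from canonical PRC1. It had the lowest mean share of the marked genes described here, although Ring1 was below it in replicate 1. Replicate 1 gave 25.8% and replicate 2 gave 15.7%, a mean of 20.8% ± 7.16, above 11.5% of all marked coding genes. The 58.9 kb gene held 20 small peaks in replicate 1 and 15 in replicate 2, the widest 2097 bp and 1254 bp. Intron 2, 53.2 kb long and most of the gene, was covered to 25.8% and 14.8%, whereas exons 3 and 4 and the introns after each were at 100% in both replicates. The last exon of 3.86 kb was covered to 17.0% and 14.9%. Of the bases covered in either replicate, 43.5% were covered in both, against 97.5% in Phc1 and 99.5% in Pcgf2. The strongest peak, at exon 4, had a fold of 5.66 and 6.54, and its summits were 1 bp apart.

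Phc1 (ENSMUSG00000040669, chr6:122317731-122340561, minus strand) encodes a polyhomeotic protein of canonical PRC1, whose SAM domain can polymerise, and had the highest mean share of the 10 genes, although Pcgf6 was above it in replicate 2. Replicate 1 gave 87.7% and replicate 2 gave 85.5%, a mean of 86.6% ± 1.53. Its exons 2 to 14 were each covered to 100% in both replicates, and exon 1, of 17 bp, was at 0. The strongest peak spanned 25807 bp and 16755 bp, in replicate order, with a fold of 15.5 and 26.4. Each peak has a single fold, which was given to all its bases, with uncovered bases at 0. The mean over the gene was then 12.7 and 17.2, above 99.5% and 99.3% of marked genes, whose medians were 3.55 and 4.11. This mean is not an enrichment measured per base, and a wide peak raises it. The strongest peak continued over M6pr, which lies 50 bp past the end of Phc1 on the opposite strand and was covered to 81.3% ± 4.92. The 5 kb past the end of Phc1 was covered to 100% in both replicates. Coverage at the shared edge cannot be split between these genes.

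**Figure D1:**
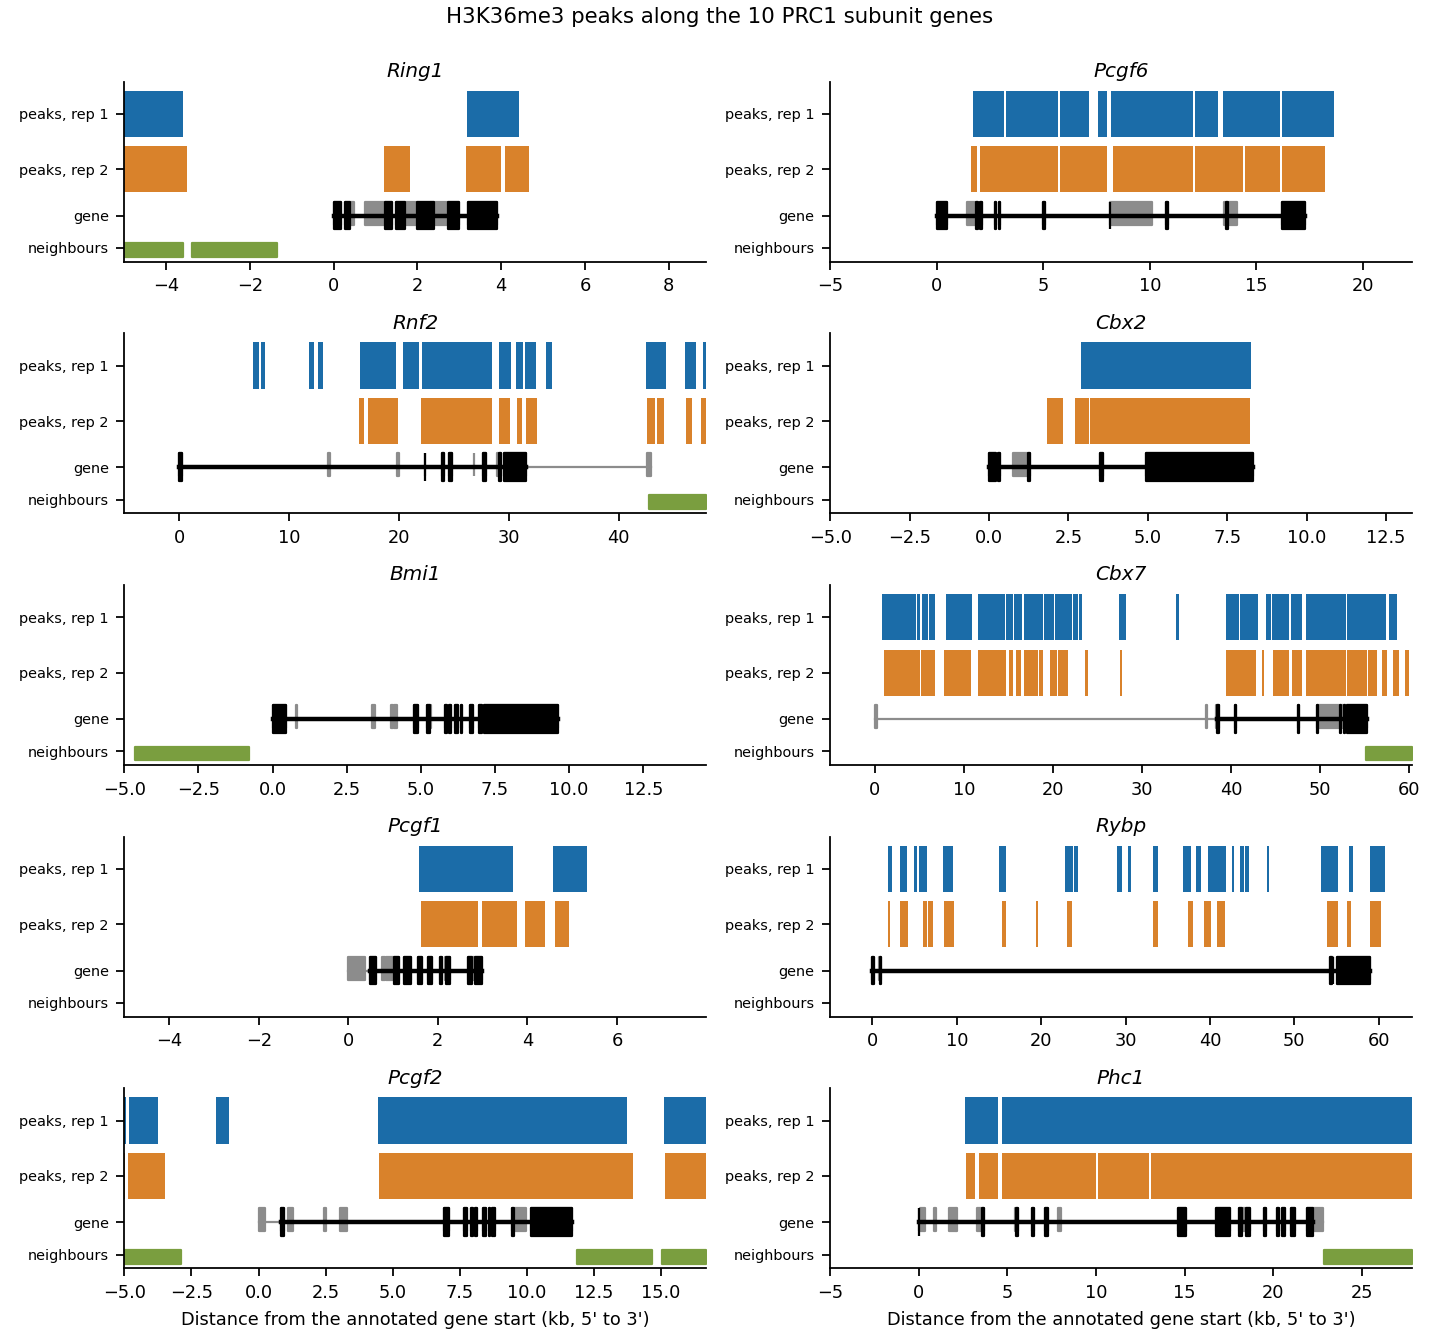
Peaks of replicate 1 (blue) and replicate 2 (orange) along each of the 10 genes, against the distance from the annotated start in kb, 5′ to 3′, with 5 kb on each side. Black marks the selected coding transcript and its exons, grey the other annotated exons and span, and green the neighbouring coding genes; Bmi1 has no peak, while Phc1 is covered to 87.7% and 85.5%.

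Ranked by mean share of the annotated span, the order was Phc1, Pcgf6, Cbx2, Pcgf2, Cbx7, Pcgf1, Rnf2, Ring1, Rybp and Bmi1. Phc1 and Pcgf6 changed places between the replicates and cannot be ordered. On that span Cbx2 was above Pcgf2, and Pcgf2 above Cbx7, Pcgf1 and Rnf2, in each replicate. In replicate 1, however, Cbx2, Pcgf2 and Cbx7 lay close together at 64.4%, 61.9% and 60.9%. Ring1 changed places with Rnf2 and with Rybp between the replicates, so these neighbours do not differ in order beyond the spread. The canonical subunits Phc1 and Bmi1 lay at 86.6% and 0, and the variant subunits Pcgf6 and Rybp at 85.03% and 20.8%, so neither form of the complex stood wholly above the other. Measured over the selected transcript alone, 9 of the 10 genes again passed 10% in each replicate, against 37.1% of 21824 coding genes with such a transcript. The order changed there: Cbx7, at 81.9% and 79.3%, lay above Cbx2 at 64.4% and 71.9%. Pcgf2, at 66.7% and 66.4%, lay below Cbx7 in both replicates and changed places with Cbx2 between them.

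No gene had a covered base within 500 bp of its annotated start, in either replicate, and exon 1 of the selected transcript was at 0 in all 10 genes. Bmi1 had no covered base anywhere. The same counts over all coding genes were not made, so this is not shown to be particular to these genes. Low coverage of the first of 10 equal parts was common: 12.5% ± 1.58 over 7789 marked coding genes of at least 3 kb, against 13.9% ± 0.981 in 8 of the genes described. In the 9 marked genes the first covered base lay between 854 bp (Cbx7, replicate 1) and 16320 bp (Rnf2, replicate 2) inside the annotated start. Position along the gene was then summarised for the 8 marked genes of at least 3 kb, which leaves out Pcgf1. Their mean coverage went from 31.4% ± 0.438 in the 5′ part through 62.8% ± 0.757 in the middle part to 71.3% ± 1.75 in the 3′ part. The difference between the 3′ and the 5′ part was 39.9 ± 2.19 points (SD, n = 2), compared with 36.1 ± 1.18 points over 7789 marked coding genes of that length.

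The 3′ part was the more covered in both replicates in 6 of the 8 genes, beside 85% of marked coding genes. Pcgf2 had the widest difference, with 0% in the 5′ part and 100% in the 3′ part in both replicates. Cbx2 differed by 86.4 ± 15.8 points, Ring1 by 52.3 ± 4.20, Phc1 by 38.7 ± 2.42, Pcgf6 by 26.4 ± 1.72 and Rnf2 by 17.3 ± 4.66. The exceptions were Rybp, at 3.09 ± 6.42 points with opposite signs in the replicates, and Cbx7, at −5.12 ± 0.0651 points. Over the span of the selected transcript Rnf2 read 76.0 ± 1.30 points and Cbx7 32.7 ± 0.0378 points, so the sign of Cbx7 depends on which span is taken as the gene.

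**Figure D2:**
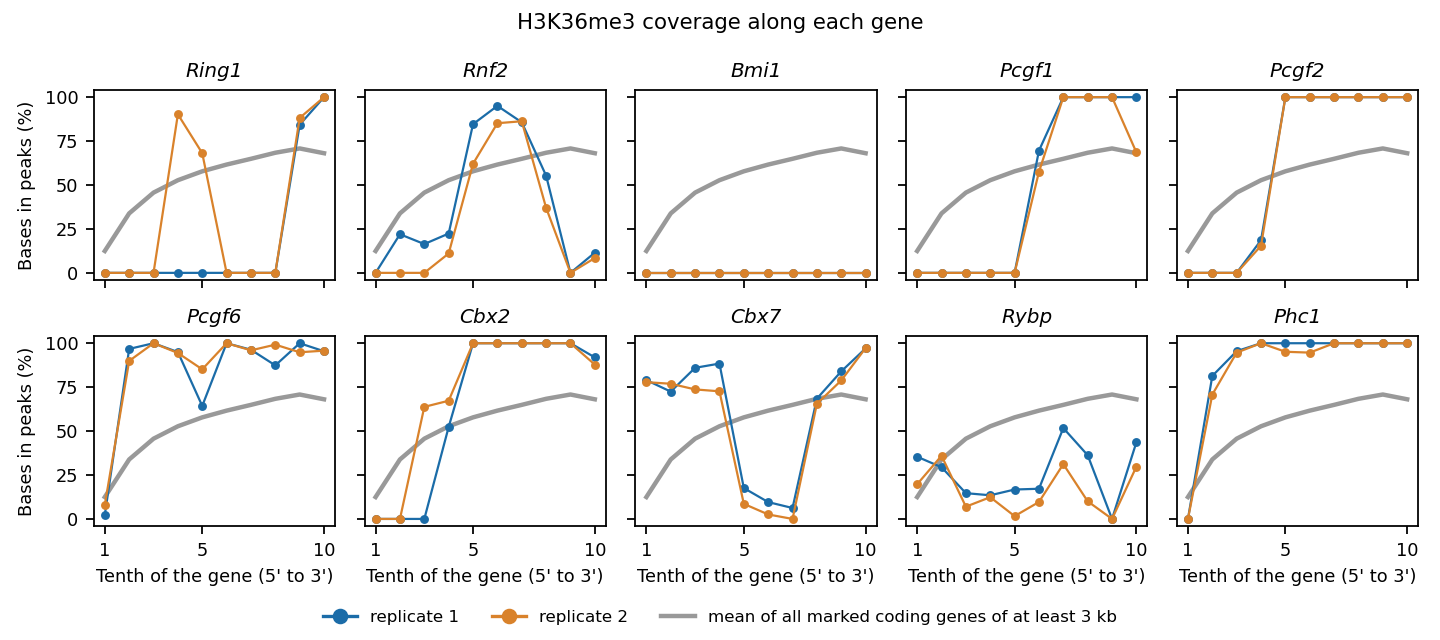
Percent of bases in peaks in each of 10 equal parts of the gene, 5′ to 3′, for each gene in replicate 1 (blue) and replicate 2 (orange), with the mean of 7789 marked coding genes of at least 3 kb in grey. Pcgf2 goes from 0% to 100% by part 5, Cbx7 has a trough in parts 5 to 7, and Bmi1 is at 0 throughout.

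Exons were covered more fully than introns when bases were pooled over the 9 marked genes. With exons merged over all transcripts, 66.1% ± 0.302 of exonic and 44.9% ± 4.65 of intronic bases lay in peaks, a ratio of 1.48 ± 0.146. Over 8010 marked coding genes with several exon blocks the ratio was 1.55 ± 0.0872. In replicates 1 and 2 it was 1.38 and 1.58 in the 9 genes, against 1.48 and 1.61 over all marked genes. The 9 genes were thus slightly lower in each replicate, a difference that was not tested. Rybp, Cbx7 and Rnf2, the longest genes, carry most of the pooled intronic bases. Gene by gene, exons exceeded introns in both replicates in 5 of the 9 (Ring1, Rnf2, Pcgf2, Cbx2 and Cbx7), beside 67.2% of marked coding genes. Phc1 and Pcgf1 had the opposite order in both replicates, and Pcgf6 and Rybp changed order between them. The order in Phc1 turned with the exons of the selected transcript alone, at 99.5% in both replicates against 85.4% and 82.8% of its introns. On the same basis Pcgf6 had 77.7% and 73.9% of exonic against 84.6% and 88.1% of intronic bases, the opposite order in both replicates. With merged exons, 37.6% and 29.7% of the exonic bases of Pcgf1 were covered, against 58.5% of intronic bases in both replicates.

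The first intron was less covered than the later introns of the same gene in all 9 marked genes, in both replicates. In Cbx2, Ring1, Pcgf1 and Rybp it was short, at 77, 91, 416 and 637 bp, and at 0 in both replicates. These introns lie near the uncovered start of the gene, so the order there says little. In Ring1 the later introns were themselves at only 1.36% and 15.8%. In Rnf2 the first intron, 22.1 kb long, was covered to 31.2% and 15.5% and the later introns to 90.2% and 89.6%. In Phc1 the values were 25.9% and 18.9% against 98.8% and 97.3%. In Pcgf6 they were 9.33% and 16.6% against 92.1% and 95.2%, and in Pcgf2 41.5% and 40.9% against 100% in both replicates. Cbx7 had the fullest first intron, at 57.6% and 58.0%, and there the gap was narrower, with later introns at 82.9% and 79.9%. This order is common: among 7668 marked coding genes compared in the same way, the later introns were the more covered in 95.8% of genes in replicate 1 and 96.1% in replicate 2.

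**Figure D3:**
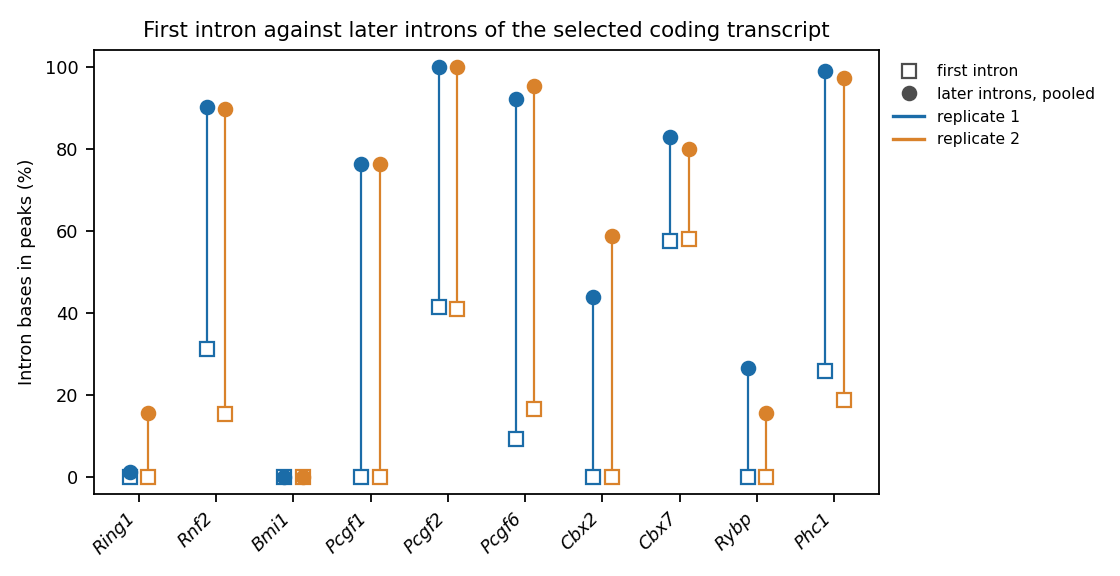
Percent of intronic bases in peaks for the first intron (open squares) and the later introns pooled (filled circles) of the selected transcript of each gene, per replicate. The filled circle lies above the square in every marked gene, and both are at 0 in Bmi1.

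Coverage past the gene end varied widely. The 5 kb downstream was covered to 100% in both replicates after Phc1, to 72.7% and 76.1% after Pcgf2 and to 61.2% and 53.8% after Cbx7, and each of these ends lies at or within 201 bp of a covered neighbour. After Rnf2, which overlaps covered Trmt1l, it was 52.0% and 40.2%. After Rybp, whose nearest downstream coding gene is 502 kb away, it was 35.3% and 27.1%. After Pcgf6 it was 27.1% and 18.3%, after Pcgf1 28.9% and 31.1%, and after Ring1 10.7% and 13.2%. After Cbx2 and Bmi1 it was 0 in both replicates.

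Other paralogues of the subunit families, named after their values had been seen, show that marked and unmarked genes occur within a family. Among PCGF genes Pcgf3, a subunit of variant PRC1, was covered to 55.3% ± 4.73, while Pcgf5, which encodes its close paralogue, was at 0.683% ± 0.0458, near Bmi1. Among CBX genes Cbx6 was at 70.3% ± 2.44, next to Cbx2, and Cbx8 had 0 covered bases in both replicates. Of the PHC genes Phc3 was at 39.1% ± 2.40 and Phc2 at 8.76% ± 0.135, both below Phc1. Yaf2, which encodes the alternative to RYBP in variant PRC1, had 0 covered bases, against 20.8% ± 7.16 for Rybp. Both RING genes were marked.

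**Figure D4:**
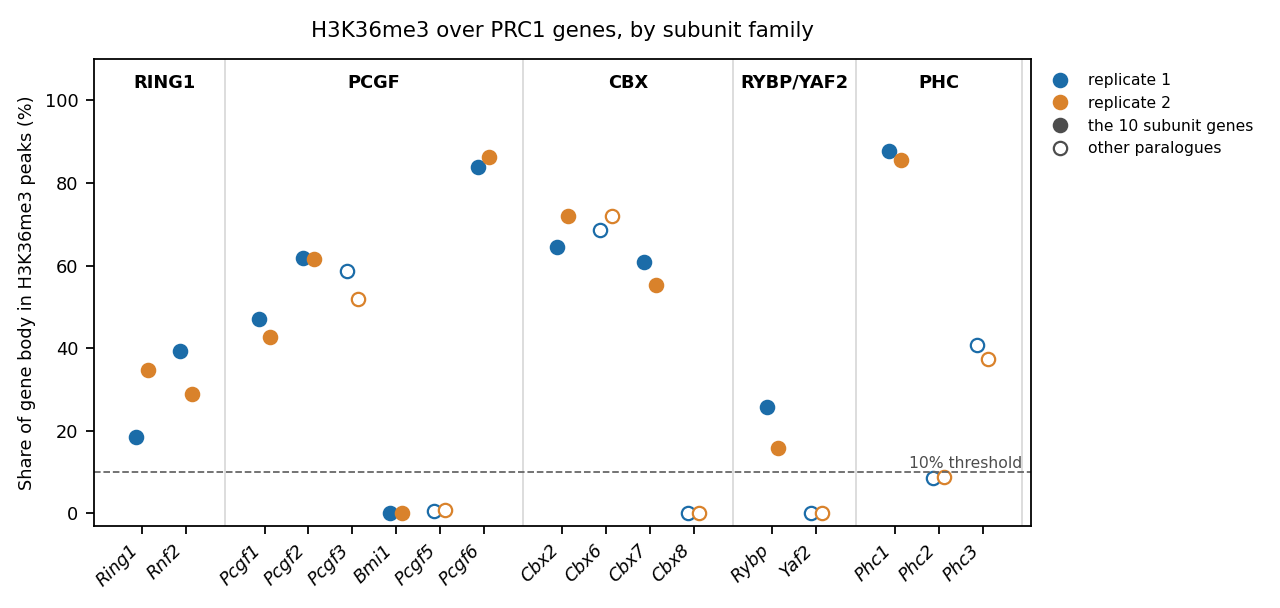
Covered share of the gene body in percent for paralogues of 5 PRC1 subunit families, in replicate 1 (blue) and replicate 2 (orange); filled points are the 10 genes described and open points other paralogues. Each family except RING1 holds at least 1 gene under the 10% line. In the PHC family this is Phc2, at 8.66% and 8.85%, which would pass a threshold of 5%.

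In the wider set of 31 other genes of PRC1 complexes, which includes these paralogues and accessory subunits, 20 were marked, or 64.5%, and the median share was 55.3%. The highest were Max, a subunit of the PCGF6 complex, at 94.9% ± 0.448, Tfdp1, a partner of E2F factors, at 93.5% ± 0.689, Fbrs at 89.2% ± 1.88 and Wdr5 at 88.5% ± 2.16. Among the lowest were Cbx8, Scml2 and Yaf2, with 0 covered bases in both replicates. Of 13 genes of PRC2, the complex that trimethylates the lysine bound by CBX proteins, 11 were marked, or 84.6%, with a median share of 60.9%. Rbbp4 was covered to 89.0% ± 2.25, Mtf2 to 83.9% ± 1.93, and the core subunit genes Eed and Suz12 to 88.8% ± 1.79 and 85.7% ± 3.55. The lowest were Phf19 at 2.62% ± 0.816, Lcor at 8.54% ± 1.50, Epop at 42.4% ± 0.0917 and Aebp2 at 47.2% ± 6.51. These lists were drawn up with results of the same data known, and their counts are descriptions beside the 37.2% of all coding genes.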

How the data were processed

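The authors called narrow peaks on mm10 for each replicate, kept those supported by pseudoreplicates, and also deposited pooled and unthresholded sets, the latter from another processing run, per the deposited lists of files. Each deposited peak has a fold enrichment, a ratio over background, and a p-value and q-value as −log10. The fold is the authors' own and was used only to describe peaks within a set. For aligner, caller and depth, nothing is given in the sources used here; control libraries were not used. Column 10 gives the summit.

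Gene spans came from GENCODE M21, with 1 record per coding symbol, the longest; 27 of 21938 records were left out. On the GRCm38 chromosomes, 0 peaks lay past an end. The covered share is the percent of bases in peaks. Parts of the gene run in the direction of transcription. Word uniqueness used 32-base words at every 10th base of RefSeq GRCm38.p6, which is C57BL/6J; the cells are 129/Ola, and the effect of strain differences was not tested. Promoters are RefSeq entries of the same build.

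The 10 genes, the lists and the choices were made with earlier results of these data known. Named were all 10 genes, the 4 highest and the 4 lowest genes of each list by mean share (ties alphabetical), and coding genes that overlap a described gene, that its peaks reach or that lie beside one with no covered base. Pcgf3, Pcgf5, Cbx6, Phc2 and Phc3 were named outside this rule, after their values were seen. A gene of these lists is not reported here. Ezhip, of the PRC2 list, is not in the annotation used. No test was run, as 1 group of peak lists without counts allows none. The coverage procedure was tested on simulated data. Python 3.11.15, numpy 2.4.6, pandas 2.3.3 and matplotlib 3.10.9 were used. Alternatives were other peak sets, a −log10 q minimum of 5, leaving out a replicate, thresholds of 5, 25 and 50%, and other spans.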

Additional observations from a re-analysis of the deposited data

How the results depend on the processing

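Of the 10 genes, 9 were marked in the unthresholded sets, the pooled set and both sets of peaks found in both replicates. The count was also 9 at −log10 q of at least 5 and over bases that no other gene overlaps. For these settings the share of all coding genes was not computed, so the counts stand without a background. In the main sets the count was 7 at 25% and 5 at 50%, against 29.9% and 19.3% of all coding genes. A threshold of 5%, or leaving out either replicate, again gave 9. There the count could not change: these settings cannot unmark a gene, and Bmi1 had 0 covered bases in both replicates. Bmi1 was at 0 under all 9 alternatives, and no other gene of the 10 came under 10%. Of 90 shares of single genes, 64 stayed within 1 SD of the main value and 26 were higher. The 64 do not measure stability, since many could not move. With 2 replicates, a share with 1 left out always lies within 1 SD of the mean. In several genes an alternative span also held the same bases. Ring1 and Rybp reached 48.2% and 38.1% (1.82 and 1.83 times their main values) in the other run's set of replicated peaks. The difference between the 3′ and the 5′ part, 39.9 points, ranged from 38.3 to 41.4 with 1 replicate left out. It was 35.6 in the unthresholded sets, 36.4 in the pooled set, 36.4 and 34.9 in the sets of peaks found in both replicates of the main and the other run, 52.1 over the selected transcripts and 64.8 between the first and the last of 10 parts. The exon to intron ratio, 1.48, ranged from 1.38 to 1.58 with 1 replicate left out. It was 1.28, 1.30, 1.29 and 1.21 in those 4 sets in the same order, 1.33 as a median over the genes, 1.64 within the 3′ part, and 1.46 with the exons of the selected transcripts, an alternative chosen after seeing the data. Other PRC1 genes marked numbered 17 to 23 and PRC2 genes 8 to 13 under the alternatives, again without a share of all coding genes in the other peak sets. The causes were not tested. The unthresholded sets differ in both the processing run and the threshold. No paired analysis was possible because the replicates form 1 group. Depth is unknown, so the absence of a peak says only that none was called.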
